A study of Mus musculus with 5 samples.

Results

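The Vcam1-expressing, Havcr1-negative tubule nuclei are a small set of kidney nuclei found in each of 4 single-nucleus RNA libraries. A nucleus was a member if it held at least 1 UMI (unique molecular identifier, 1 counted RNA molecule) of Vcam1, 0 UMIs of Havcr1, and 0 UMIs of Flt1, Emcn, Pdgfrb and Ptprc, which mark endothelium, mural cells and leukocytes. This rule took 141 of 13021 GFP-positive nuclei with at least 200 detected genes, and all 5 libraries of the study held 16359 such nuclei. Each of the 4 libraries held GFP-positive nuclei: 1 from uninjured kidneys (no injury), and 1 each from kidneys collected 64 h, 96 h and 28 d after ischaemia-reperfusion (IRI), in which both pedicles had been clamped. The fifth library held GFP-negative nuclei without injury. All mice were males of 10 to 12 weeks that carried 3 alleles together, Six2-TGC with Rosa26rtTA and with pTRE-H2BeGFP, and ate doxycycline food (625 mg per kg), so that nuclei of the Six2 lineage, which forms the nephron, carried a green histone. Blood urea nitrogen at harvest was 26.1, 37.0, 91.8 and 31.7 mg/dL in the animals without injury and at 64 h, 96 h and 28 d. The labels call the baseline uninjured and the design text speaks of sham surgery. How many animals went into a library is not given in the sources used here, so differences over time carry no test and every interval covers counting error only.

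Members were set against proximal tubule (PT) reference nuclei of the same library, which held at least 3 UMIs over Slc34a1, Lrp2 and Slc5a12 and none of Vcam1 or Havcr1. Unlike the members, the reference was not cleared of nuclei with Flt1, Emcn, Pdgfrb or Ptprc. There were 24, 29, 21 and 67 members and 2673, 1671, 1005 and 2343 PT reference nuclei without injury and at 64 h, 96 h and 28 d. All sets of 4 values below keep that order of libraries. Levels are given as CPM, the UMIs of a gene scaled by the total UMIs of its summed class, and the members' sums held 56676, 57630, 12563 and 105801 UMIs. A gene with 1 UMI therefore stood at 17.6, 17.4, 79.6 or 9.45 CPM in the members, and the 96 h library was the thinnest. Members held a median of 2214, 1739, 514 and 1410 UMIs per nucleus, against 2018, 1410, 536 and 1064 in the PT reference.

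Vcam1 encodes vascular cell adhesion molecule 1, the endothelial ligand of the leukocyte integrin VLA-4, which epithelia can also make under inflammatory signals, largely through the transcription factor NF-kB. Havcr1 encodes KIM-1, the standard marker of acutely injured proximal tubule. In injured mouse and human kidneys, tubule cells with VCAM1 and without KIM-1 have been described as a proinflammatory, profibrotic state that fails to complete repair. The proximal tubule itself reabsorbs most filtered sodium, glucose, amino acids, phosphate and protein, burns fatty acids and makes glucose, under transcription factors such as Hnf4a.

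Members made up 0.684%, 0.963%, 0.656% and 2.03% of the kept nuclei, with exact Clopper-Pearson 95% intervals of 0.439 to 1.02%, 0.646 to 1.38%, 0.406 to 1.0% and 1.58 to 2.57%. The 28 d share was thus the highest, and its interval did not meet the other libraries' intervals. Depth moves such shares, so Vcam1 was also read from 500 randomly drawn UMIs per nucleus, with the exclusions at full depth. The shares were then 0.171% (0.0628 to 0.372%), 0.61% (0.362 to 0.962%), 0.608% (0.292 to 1.12%) and 0.828% (0.537 to 1.22%), and the 3 libraries after injury overlapped each other. This reading left out 0, 60, 1557 and 281 nuclei with fewer UMIs. The 28 d interval lay above the one without injury, and the 64 h and 96 h intervals overlapped it. This reading was chosen after seeing the data. With the exclusions also read from 500 UMIs, the share was 0.2% (0.0803 to 0.411%) without injury and 0.881% (0.576 to 1.29%) at 64 h. It was 0.669% (0.334 to 1.19%) at 96 h and 0.928% (0.617 to 1.34%) at 28 d. The 64 h and 28 d intervals then lay above the one without injury, so the place of 64 h depended on the reading. As a background, nuclei with thick ascending limb, connecting tubule or intercalated cell markers gave 1 of 379, 2 of 387, 0 of 114 and 1 of 212 with Vcam1 and no Havcr1, or 0.264%, 0.517%, 0% and 0.472%, at median depths of 1092, 1042, 431.5 and 708 UMIs. The 0 of 114 allows up to 3.18%. These background intervals overlapped the members' shares in every library, so a Vcam1 UMI by itself was not shown to set members apart from this background. With so few background nuclei the overlap cannot show that the shares are equal. Whether their Vcam1 was free RNA was not tested. The comparisons below rest on other genes.

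**Figure D1:**
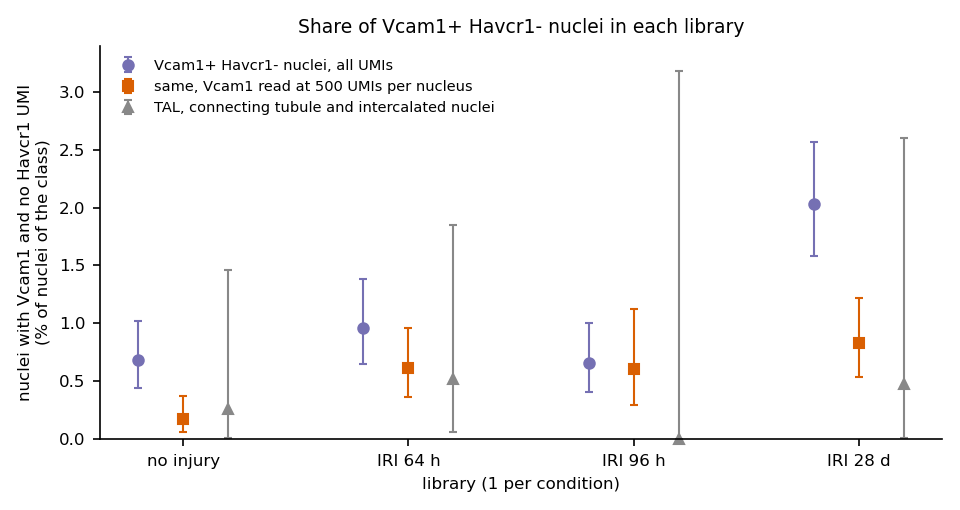
Share of kept nuclei that were Vcam1+ Havcr1- in each GFP-positive library (percent), with all UMIs and with Vcam1 read from 500 UMIs per nucleus, beside the share of thick ascending limb, connecting tubule and intercalated nuclei with Vcam1 and no Havcr1. Points are shares and bars exact 95% binomial intervals. The reading from 500 UMIs kept the exclusions at full depth. The 28 d share was 2.03% with all UMIs and 0.828% at 500 UMIs, and the no-injury share 0.684% and 0.171%.

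Members were chosen by their Vcam1, Havcr1 and stromal gene UMIs, so these values are a description. Vcam1 stood at 723, 1270, 2230 and 992 CPM from 41, 73, 28 and 105 UMIs. Of the 141 members, 98 held exactly 1 Vcam1 UMI and so sat just inside the rule, 25 held 2 and 18 held 3 or more, with at most 12 in a nucleus. Of all nuclei with Vcam1, 5, 23, 7 and 7 were outside because they held Havcr1, and 4, 4, 3 and 13 because they held an endothelial, mural or leukocyte gene. Members held a median of 5, 2, 0 and 2 UMIs of the 3 PT genes, against 15, 9, 5 and 9 in the PT reference. In all, 61 members (16, 11, 3 and 31) passed the PT gate, 48 held 1 or 2 of these UMIs and 32 held none. At the edge of that gate, 9 members held exactly 3 and 19 exactly 2. Between 200 and 399 genes were detected in 17 members, and 1 barcode at 96 h met the rest of the rule below 200 genes. Pairs of libraries shared at most 20 barcodes.

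The label of tubule nuclei was checked against marker lists of 13 kidney cell types. The PT list led in 62 of 141 members (44.0%), the thick ascending limb list in 13 (9.22%), the thin limb list in 5 (3.55%), and 7 were tied (4.96%). No list reached 2 UMIs in 45 members (31.9%), so these had no segment identity at this depth. Podocyte, parietal and intercalated lists led in 2 members each, and distal convoluted tubule, fibroblast and immune lists in 1 each. Endothelium, connecting tubule, principal cell and urothelium lists led in none. The endothelium list of 8 genes holds Flt1 and Emcn, and the fibroblast and mural list of 9 holds Pdgfrb. These genes were at 0 by the rule, so the rule itself lowered these lists in members. The leukocyte genes Ptprc, Lyz2, C1qa, C1qb, Adgre1 and Cd3e had 0 UMIs in members of all 4 libraries, Ptprc by the rule. The whole immune list of 11 genes nevertheless summed to 124, 69.4, 159 and 104 CPM in members from 7, 4, 2 and 11 UMIs, against 58.9, 55.9, 105 and 98.4 CPM in the PT reference. Its 2 tested genes, the class II antigen presentation genes Cd74 and H2-Ab1, did not pass (log2 fold changes 1.43 and 0.83, edgeR adjusted p = 0.173 and 0.521). The thick ascending limb list summed to 600, 1410, 159 and 1090 CPM in members, against 869, 543, 341 and 813 CPM in the PT reference. The thin limb list summed to 176, 590, 239 and 161 CPM in members and 91.9, 155, 92.0 and 55.8 CPM in the reference, and the parietal list to 141, 52.1, 79.6 and 198 CPM in members and 20.5, 23.6, 19.4 and 23.0 CPM in the reference. The podocyte list was at 247, 52.1, 0 and 104 CPM in members and 16.2, 8.75, 14.5 and 41.2 CPM in the reference. The part that nephron nuclei other than PT play in the comparisons was not tested beyond 2 repeats: members that passed the PT gate, and classes without nuclei holding 2 UMIs of the parietal, podocyte, endothelial, stromal and immune lists. The second repeat does not remove thick or thin limb nuclei.

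Across 5757 genes tested with edgeR's quasi-likelihood test on the summed counts, with the library as a block and Benjamini-Hochberg adjustment, 226 genes (3.93%) were higher and 278 (4.83%) lower in members than in the PT reference at an adjusted p under 0.05. An adjusted p under 0.05 with the same direction in all 4 libraries held for 151 higher genes (2.62%) and 252 lower genes (4.38%). Without the 28 d library 122 (2.14%) were higher and 139 (2.44%) lower of 5696 genes tested, and without the 64 h library 154 were lower. Without the 96 h library more genes could be tested, 9920. Of these 250 (2.52%) were higher and 465 (4.69%) lower, so the lower share was close to that with all 4 libraries. Against a reference with no PT gate, 115 (1.32%) were higher and 166 (1.91%) lower of 8702 genes. Of the 226 higher and 278 lower genes, 78 and 87 were called in all 4 fits that left out 1 library. The test treats the 4 libraries, each of another condition, as its repeats. An unadjusted p under 0.05 was given by 20.2% of the genes. The 9 genes of the rule took no test. Among markers of other nephron cells, the higher calls held Slc12a1 of the thick ascending limb, at 441, 868, 0 and 766 CPM in members and 520, 156, 54.9 and 366 CPM in the reference, Cryab of the thin limb, at 124, 521, 239 and 47.3 CPM in members and 56.8, 136, 67.8 and 29.6 CPM in the reference, and Cldn1 of the parietal epithelium. The lower calls held Cldn10 of the same thick ascending limb list (log2 fold change -0.98, edgeR adjusted p = 0.0145), Slc12a3 of the distal convoluted tubule (-2.03, adjusted p = 0.00104) and Slc8a1 of the connecting tubule. Without nuclei holding parietal, podocyte, endothelial, stromal or immune markers, 181 genes were higher and 240 lower.

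Of the genes named by size, the chemokine genes Cxcl2 and Cxcl10, the hyaluronan receptor gene Cd44, the macrophage growth factor gene Csf1, the ceruloplasmin gene Cp and the inhibitor of apoptosis gene Birc3 rose in members, as did Dock10, Ankrd1, Stap2 and Zbtb7c. Dock10 (chr1:80501073-80758527, minus strand, mm10), which encodes an activator of the small GTPases Cdc42 and Rac, had the lowest p. It stood at 670, 503, 637 and 718 CPM in members, against 15.8, 27.0, 17.8 and 69.4 CPM in the PT reference. Every member library lay far above every reference library, and 37.6% of members held a UMI of it against 2.73% of the reference. The log2 fold change was 4.25 ± 0.26 (SE) with an edgeR adjusted p of 3.06e-56. Cp (chr3:19957054-20009145, plus strand) encodes the copper-carrying ferroxidase of plasma. It stood at 812, 538, 398 and 463 CPM in members and 22.1, 28.9, 43.6 and 53.4 CPM in the reference, with no overlap (log2 fold change 3.97 ± 0.26, edgeR adjusted p = 3.37e-50). Ankrd1, a target of the mechanosensitive factor YAP, had 6, 9, 2 and 19 UMIs in members, or 106, 156, 159 and 180 CPM, against 3.13, 8.37, 3.23 and 12.6 CPM in the reference. Its log2 fold change was 4.25 ± 0.49 (edgeR adjusted p = 9.15e-16). Stap2, which encodes an adaptor protein, rested on 14 member UMIs where the reference level would give 0.855 (log2 fold change 3.89 ± 0.73, edgeR adjusted p = 5.75e-06), and 4 of them came from 1 nucleus at 96 h.

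**Figure D2:**
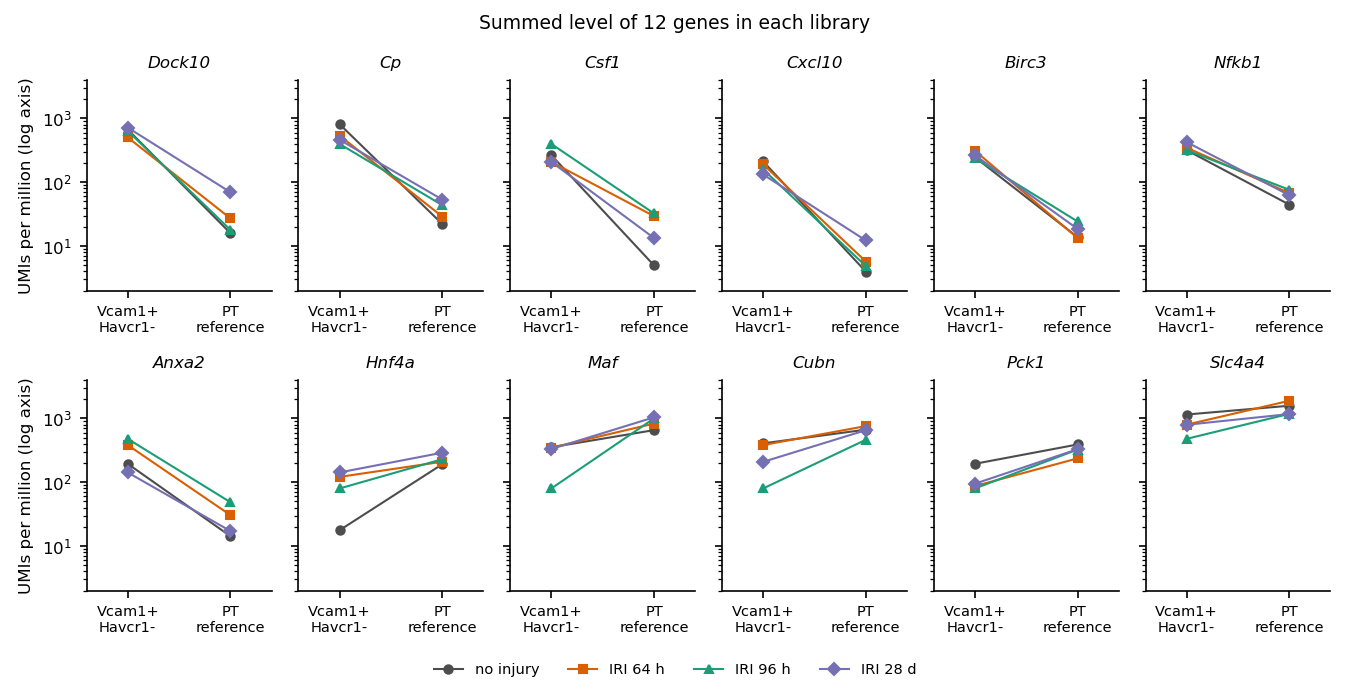
Levels of 12 genes (CPM, log axis) in Vcam1+ Havcr1- nuclei (left) and PT reference nuclei (right), with 1 line for each of the 4 libraries. Dock10, Cp, Csf1, Cxcl10, Birc3, Nfkb1 and Anxa2 were higher in members in all 4 libraries, and Hnf4a, Maf, Cubn, Pck1 and Slc4a4 were lower in all 4.

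Genes of leukocyte adhesion and recruitment were the group with the highest list median. Of 17 listed genes beside Vcam1, 10 passed the filter on low counts and 9 of these rose in members, where 3.93% of all genes did: Cd44, Icam1, Cxcl1, Cxcl2, Cxcl10, Cxcl16, Csf1, Il34 and Spp1. The median log2 fold change of the 10 was 2.09, against -0.07 over all genes tested. The filter used counts of both classes, so a gene sparse in the reference could be tested only where members held more. At the reference level Cxcl2, Cd44 and Cxcl10 would have had 0.861, 1.42 and 1.91 member UMIs, where 23, 41 and 39 were seen. The share called and the median, here and in the lists below, were thus partly set by the filter. Csf1 (chr3:107741048-107760469, minus strand), the growth factor of macrophages, stood at 265, 208, 398 and 208 CPM in members from 15, 12, 5 and 22 UMIs, against 4.95, 29.3, 32.3 and 13.3 CPM in the PT reference. The lowest member library was above the highest reference library, and at 64 h 17 of the 77 reference UMIs lay in 1 nucleus. Its log2 fold change was 3.86 ± 0.35 (edgeR adjusted p = 1.01e-25). Il34, which encodes the other ligand of the same receptor, was more abundant in both classes, at 229, 711, 876 and 633 CPM in members and 88.4, 134, 283 and 215 CPM in the reference (log2 fold change 1.69 ± 0.23, edgeR adjusted p = 2.3e-11).

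Cxcl10, an interferon-inducible attractant of T cells, had 12, 11, 2 and 14 UMIs in members, or 212, 191, 159 and 132 CPM, against 3.96, 5.7, 4.84 and 12.2 CPM in the PT reference (log2 fold change 4.58 ± 0.47, edgeR adjusted p = 8.33e-20). Cxcl1 and Cxcl2 encode attractants of neutrophils. Cxcl2 stood at 124, 69.4, 79.6 and 104 CPM in members and 0.33, 0.761, 4.84 and 6.98 CPM in the reference, the largest fold of the named genes (log2 fold change 5.18 ± 0.68, edgeR adjusted p = 6.04e-12). It came from 14 members, and at 64 h all 4 UMIs lay in 1 nucleus. Cd44 had 5, 12, 1 and 23 UMIs, or 88.2, 208, 79.6 and 217 CPM, in members and 0.825, 4.18, 1.61 and 10.5 CPM in the reference, and 9 of the 12 UMIs at 64 h were in 1 nucleus (log2 fold change 5.11 ± 0.51, edgeR adjusted p = 2.05e-20). Icam1, the other classic leukocyte ligand, stood at 176, 208, 159 and 180 CPM in members and 22.6, 37.6, 136 and 27.6 CPM in the reference, whose 96 h value was just under the lowest member value (log2 fold change 2.27 ± 0.34, edgeR adjusted p = 4.91e-09). Spp1, the gene of osteopontin, stood at 600, 1680, 1830 and 888 CPM in members against 150, 712, 631 and 194 CPM in the reference, and the classes overlapped across libraries but not within any (log2 fold change 1.62 ± 0.21, edgeR adjusted p = 5.61e-12). Alcam did not pass (log2 fold change 0.82, edgeR adjusted p = 0.0756).

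NF-kB dimers sit in the cytoplasm bound to inhibitors such as the product of Nfkbia, and once released they switch on adhesion and chemokine genes together with their own inhibitors. Of 20 listed genes, 10 were tested and 5 rose: Nfkb1 and Relb, which encode subunits, Nfkbia and Nfkbiz, which encode inhibitory or regulatory ankyrin proteins, and Birc3, an NF-kB target and regulator of the pathway. The list's median log2 fold change was 1.26. Birc3 (chr9:7848699-7873186, minus strand) stood at 247, 312, 239 and 265 CPM in members and 13.7, 13.3, 24.2 and 18.5 CPM in the PT reference, with a member level close to even across the 4 libraries (log2 fold change 4.00 ± 0.33, edgeR adjusted p = 2.19e-31). Nfkb1 (chr3:135584655-135691547, minus strand) stood at 318, 347, 318 and 425 CPM in members and 44.4, 67.3, 75.9 and 62.4 CPM in the reference, without overlap (log2 fold change 2.53 ± 0.27, edgeR adjusted p = 5.56e-18). Nfkbia stood at 194, 312, 318 and 217 CPM in members and 38.6, 69.2, 69.4 and 58.9 CPM in the reference (log2 fold change 2.03 ± 0.30, edgeR adjusted p = 1.56e-09). Relb rested on 22 member UMIs, at 52.9, 121, 239 and 85.1 CPM against 7.26, 8.37, 14.5 and 12.9 CPM in the reference (log2 fold change 3.16 ± 0.54, edgeR adjusted p = 3.47e-07). Rela, which encodes another subunit, missed the threshold (log2 fold change 1.19, edgeR adjusted p = 0.109), as did the kinase genes Ikbkb (0.83, adjusted p = 0.0616) and Chuk (0.15, adjusted p = 0.871).

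The promoters of the 14 genes called in both lists were searched for the NF-kB consensus, by its standard degenerate 10-base form, on both strands of the window from 250 bases before to 50 after the start (RefSeq, GRCm38.p6). Windows existed for 9 of the 14 genes, and 5 of the 9 (55.6%) held a match, against 549 of 4475 tested genes with a window (12.3%) and 2581 of 27025 genes in all (9.55%). The 5 are Csf1, Cxcl1, Cxcl2, Cxcl10 and Nfkbia. Birc3, Cd44, Icam1 and Spp1 held none, and Relb, Nfkb1, Nfkbiz, Il34 and Cxcl16 had no entry. The windows of Cxcl10, Cxcl2, Csf1 and Nfkbia are printed because they show the shared letters in genes that moved together, with the matches in capitals and each read 5′ to 3′ on the gene's strand. Matches that overlap were counted separately, so a run of 11 capitals holds 2 of them. A match describes the letters and does not show binding. Both lists were written around NF-kB and the adhesion and chemokine genes it switches on. A higher share than over all genes can follow from that choice alone, and uncalled genes of the lists were not compared. The share therefore tells nothing about these nuclei.
Cxcl10, chr5:92348840-92349139, minus strand: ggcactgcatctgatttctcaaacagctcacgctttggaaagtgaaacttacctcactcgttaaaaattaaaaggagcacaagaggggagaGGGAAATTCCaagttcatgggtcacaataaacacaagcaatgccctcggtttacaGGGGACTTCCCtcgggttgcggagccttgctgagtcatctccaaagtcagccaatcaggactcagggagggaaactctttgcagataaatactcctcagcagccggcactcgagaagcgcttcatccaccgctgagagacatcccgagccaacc
Cxcl2, chr5:90903649-90903948, plus strand: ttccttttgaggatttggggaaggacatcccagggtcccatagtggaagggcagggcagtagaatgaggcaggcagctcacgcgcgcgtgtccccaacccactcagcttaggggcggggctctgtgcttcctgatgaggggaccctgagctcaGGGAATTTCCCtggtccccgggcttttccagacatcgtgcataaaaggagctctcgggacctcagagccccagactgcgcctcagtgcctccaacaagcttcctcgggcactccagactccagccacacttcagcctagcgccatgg
Csf1, chr3:107760420-107760719, minus strand: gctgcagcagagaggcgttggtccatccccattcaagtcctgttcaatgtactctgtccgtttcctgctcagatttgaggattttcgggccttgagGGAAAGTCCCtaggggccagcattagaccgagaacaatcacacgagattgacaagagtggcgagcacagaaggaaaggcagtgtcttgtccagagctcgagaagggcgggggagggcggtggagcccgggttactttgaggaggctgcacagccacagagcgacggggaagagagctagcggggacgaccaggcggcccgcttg
Nfkbia, chr12:55492598-55492897, minus strand: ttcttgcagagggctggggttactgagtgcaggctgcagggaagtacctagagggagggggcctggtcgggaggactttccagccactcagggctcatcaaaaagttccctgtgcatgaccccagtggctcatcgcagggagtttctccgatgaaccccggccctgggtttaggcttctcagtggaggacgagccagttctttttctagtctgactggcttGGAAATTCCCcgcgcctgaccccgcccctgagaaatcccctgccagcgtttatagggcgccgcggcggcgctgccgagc
The matches start 159, 104 and 103 bases before the Cxcl10 start, 97 and 96 before that of Cxcl2, 154 before that of Csf1 and 29 before that of Nfkbia.

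Injury and cytoskeleton genes were higher in members as well. Of 19 genes of tubule injury and dedifferentiation, 12 were tested and 7 rose (Krt20, Pax2, Cdh6, Cp, Akap12, Dcdc2a and Sema5a), with a list median of 1.22. Without the 28 d library 4 of 12 rose, and Pax2 was called in 0 of the 4 fits that left out 1 library. Krt20, a keratin of injured tubule, stood at 124, 69.4, 79.6 and 56.7 CPM in members from 18 UMIs, against 1.98, 27.8, 17.8 and 3.14 CPM in the PT reference (log2 fold change 3.16 ± 0.59, edgeR adjusted p = 5.31e-06). Clu did not pass (log2 fold change 0.42, edgeR adjusted p = 0.764), and Pax8, a nephron lineage factor, missed the threshold (0.61, adjusted p = 0.0555). Of 20 keratin and actin cytoskeleton genes, 13 were tested and 10 rose, with a median of 1.53. Anxa2 (chr9:69453620-69491795, plus strand), which encodes a calcium-dependent membrane and actin binding protein, stood at 194, 382, 478 and 142 CPM in members and 14.2, 30.4, 48.4 and 17.1 CPM in the reference, without overlap (log2 fold change 3.36 ± 0.33, edgeR adjusted p = 3.72e-21). Actb and Actg1, the actin genes themselves, did not pass (log2 fold changes 0.37 and 0.62, edgeR adjusted p = 0.515 and 0.312).

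The profibrotic list was more mixed. Of 22 ligand, matrix and integrin genes, 12 were tested and 6 rose: Pdgfb, Pdgfd, Cyr61, Col4a1, Col18a1 and Itgav, with a median of 0.91. Itgav encodes the integrin chain that, with Itgb6, activates latent TGF-beta. It stood at 812, 1080, 1110 and 699 CPM in members and 237, 427, 262 and 219 CPM in the PT reference (log2 fold change 1.57 ± 0.21, edgeR adjusted p = 3.52e-11), while Itgb6 had a log2 fold change of -0.05 (adjusted p = 0.953). Pdgfb, a growth factor for mural cells and fibroblasts, stood at 88.2, 226, 239 and 75.6 CPM in members and 15.3, 33.8, 63.0 and 21.3 CPM in the reference (log2 fold change 2.21 ± 0.40, edgeR adjusted p = 1.77e-06). Pdgfd was decided by 1 library: 46 of its 50 member UMIs were at 28 d, and without that library its log2 fold change was -0.042. Cyr61 was called in 0 of the 4 fits that left out 1 library, and Pdgfd in 3. Tgfb1, Tgfb2, Ctgf and Fn1 were too sparse to test. Of 22 AP-1 and stress factor genes, 10 were tested and Junb, Klf6, Nfat5 and Yap1 rose (median 0.66), against 2 of 16 (Klf6 and Nfat5) without the 96 h library. Yap1 was called in 0 of the 4 fits that left out 1 library. In the complement list, C3, the central component of the cascade, rose among 3 genes tested (log2 fold change 2.78 ± 0.46, edgeR adjusted p = 1.4e-07), at 106, 17.4, 239 and 151 CPM in members and 4.78, 9.89, 87.2 and 13.3 CPM in the reference. No tested gene of the cell cycle list (3 tested) or of the p53 and senescence list (8 tested) was called. Of those 11 genes, Gdf15 came nearest (log2 fold change 1.10, edgeR adjusted p = 0.0768). It rose, as 1 of 7 p53 and senescence genes, without nuclei holding 2 or more UMIs of other cell types. The topoisomerase gene Top2a rose as 1 of 8 cell cycle genes without the 96 h library, and as 1 of 4 against the reference without PT gate.

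Genes of proximal tubule function were lower, but here the gate matters, since the PT reference was chosen for 3 PT genes and members were not. All 12 listed PT transcription factors were tested, and Hnf4a, Maf and Ppara fell, with a median of -0.57, where 4.83% of all genes fell. Maf, a large Maf factor of the proximal tubule, stood at 353, 347, 79.6 and 331 CPM in members and 655, 829, 1000 and 1040 CPM in the reference (log2 fold change -1.51 ± 0.25, edgeR adjusted p = 1.4e-07). Hnf4a, which drives proximal tubule maturation, stood at 17.6, 121, 79.6 and 142 CPM in members from 24 UMIs and 191, 209, 229 and 290 CPM in the reference, and every member library lay below every reference library (log2 fold change -1.32 ± 0.33, edgeR adjusted p = 0.00184). Other factors did not pass, among them Cux1 (log2 fold change 0.11, SE 0.23).

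Genes of all 3 PT segments fell: 5 of 6 tested in S1, 3 of 6 in S2 and 4 of 7 in S3, with medians of -1.40, -1.45 and -1.48. They were transporter genes in S1, while the S2 calls included the enzyme gene Cyp2e1 and the S3 calls the enzyme genes Cyp7b1 and Acsm3. Slc5a2, the glucose transporter SGLT2 of S1, had 9, 0, 0 and 13 UMIs in members, or 159, 0, 0 and 123 CPM, against 326, 148, 286 and 288 CPM in the PT reference (log2 fold change -1.58 ± 0.33, edgeR adjusted p = 8.85e-05). Of 17 endocytosis and brush border genes, 15 were tested and 9 fell (median -0.95). Cubn, which encodes the endocytic receptor cubilin, stood at 406, 382, 79.6 and 208 CPM in members and 666, 757, 462 and 653 CPM in the reference (log2 fold change -1.25 ± 0.25, edgeR adjusted p = 4.17e-05). The endocytic adaptor gene Dab2 fell by 1.65 ± 0.22 on the log2 scale (edgeR adjusted p = 5.27e-12), at 2190, 1700, 876 and 2350 CPM in members and 5470, 5730, 3440 and 6230 CPM in the reference. In gluconeogenesis 4 of 6 tested genes fell (Pck1, G6pc, Fbp1 and Pcx; median -1.18), and in fatty acid oxidation 5 of 19 (among them Acadm, Ehhadh, Acaa1b and Cyp4a10; median -0.80). Pck1, the gene of the committing enzyme of gluconeogenesis, stood at 194, 86.8, 79.6 and 94.5 CPM in members and 390, 236, 325 and 329 CPM in the reference (log2 fold change -1.51 ± 0.31, edgeR adjusted p = 4.77e-05). In glycolysis, Pkm rose among 8 tested genes (log2 fold change 1.59 ± 0.46, edgeR adjusted p = 0.00998), with 19 member UMIs. Without the 28 d library, 1 of 6 genes in S2, 2 of 5 in S3, 5 of 15 in endocytosis and brush border and 3 of 19 in fatty acid oxidation fell, and Pkm was not called.

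The lower genes of largest fold were mostly near 0 in members. Cela1, a pancreatic-type elastase gene, had 0 UMIs in members, where the reference level would give 14.3, so it was at least 4.75-fold lower with a floor of 3 counts over the group. Pex16, a peroxisome assembly gene, had 0 where 7.84 would be given, at least 2.61-fold lower. Slc8a1, a sodium-calcium exchanger gene that marks the connecting tubule, had 2 UMIs against 102 at the reference level (log2 fold change -5.65 ± 0.57, edgeR adjusted p = 2.42e-20). Its reference sum was uneven, with up to 270 UMIs in 1 nucleus. Kmo, Ccnk, Phka2, Phactr1, Aldh9a1, Cndp1 and Tbxas1 held 1 or 2 member UMIs each.

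To put both classes through the same gate, the 61 members with at least 3 PT UMIs were set against the same PT reference. Both comparisons use the same reference nuclei and share members, so they are not independent. Of 5305 genes tested, 18 were higher (0.339%) and 1 lower (0.0189%), the lower gene being Slc8a1, in all 0.358%, and 7.09% had an unadjusted p under 0.05. Dock10 (log2 fold change 3.78 ± 0.40, edgeR adjusted p = 5.15e-18), Anxa2 (3.43 ± 0.42, adjusted p = 6.33e-13) and Cp (3.36 ± 0.40, adjusted p = 3.34e-14) led. Csf1 (2.84 ± 0.56, adjusted p = 2.01e-04), Nfkb1 (2.00 ± 0.43, adjusted p = 9.42e-04), Icam1 (2.11, adjusted p = 0.00584), the gelsolin family gene Scin (2.83 ± 0.45, adjusted p = 2.39e-07), the transcriptional regulator gene Sbno2 (2.85 ± 0.47, adjusted p = 8.08e-07) and the reticulon gene Rtn4 (1.75 ± 0.41, adjusted p = 0.00808) also rose. No PT function or PT factor gene of the lists was called. With total UMIs in place of TMM scaling the counts were 53 higher and 33 lower, and the summed 96 h profile had a TMM factor of 3.96.

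The 96 h library held 3 of these members with 1871 UMIs in all. Without it, 9476 genes could be tested, 35 were higher (0.369%) and 130 lower (1.37%). The lower calls then took in Hnf4a (log2 fold change -1.41, edgeR adjusted p = 0.0266), Maf (-1.26, adjusted p = 3.97e-04), Ppara (-0.93, adjusted p = 0.0397), Cubn (-1.15, adjusted p = 0.00265) and Pck1 (-1.34, adjusted p = 0.00982). Counted by list, 3 of 12 PT factors, 3 of 7 S1 genes, 0 of 7 S2 genes, 4 of 8 S3 genes, 7 of 17 endocytosis and brush border genes and 3 of 20 fatty acid oxidation genes fell. The higher calls held 5 of 11 adhesion and chemokine genes (Cd44, Csf1, Cxcl10, Icam1 and Spp1) and 3 of 14 NF-kB genes (Nfkb1, Birc3 and Nfkbia). Leaving out the 28 d library, which gave 31 of the 61 members, gave 5 higher and 1 lower gene. Dock10, Cp and Anxa2 stayed called, while Csf1, Nfkb1 and Icam1 did not (edgeR adjusted p = 0.587, 0.759 and 0.717).

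**Figure D3:**
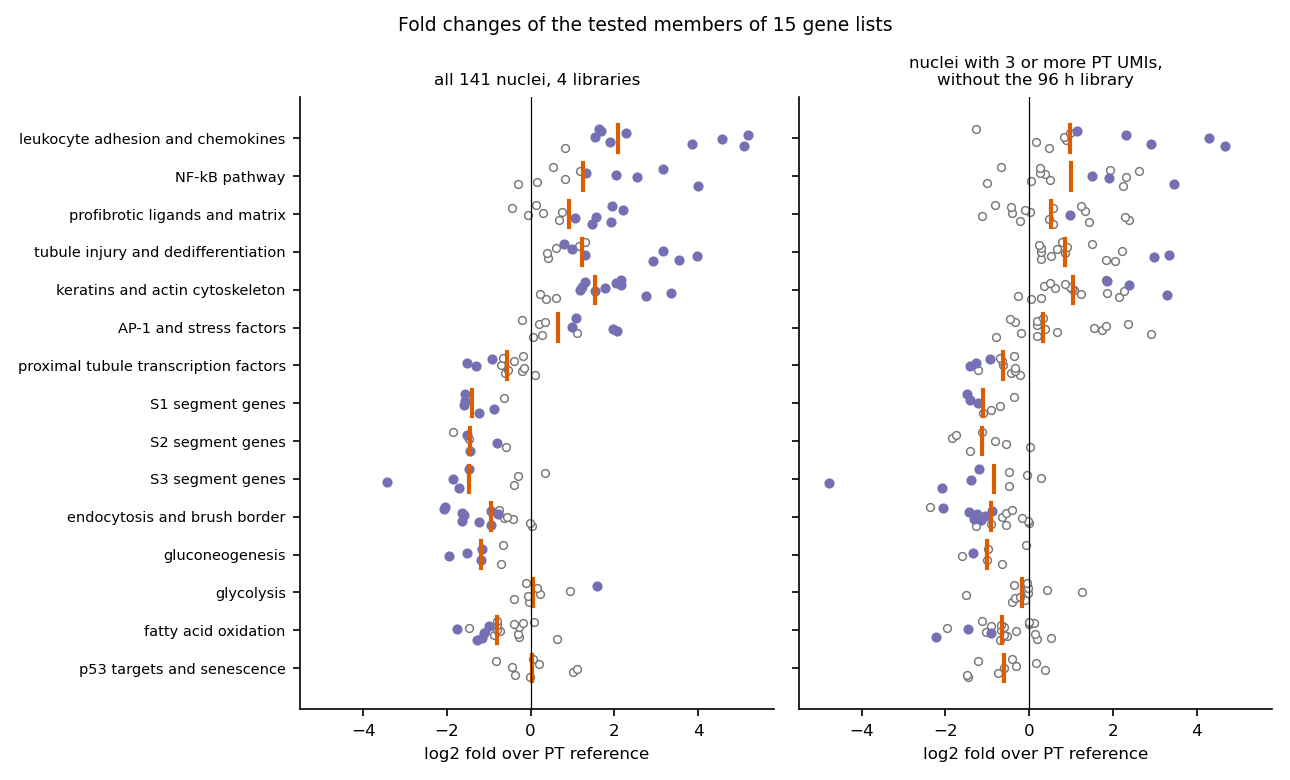
Log2 fold change of every tested gene in 15 lists, for all 141 Vcam1+ Havcr1- nuclei over PT reference nuclei (left) and for members with at least 3 PT UMIs without the 96 h library (right). Filled points have an edgeR adjusted p under 0.05, and orange bars are list medians. The adhesion and chemokine median was 2.09 on the left, and the PT factor median -0.57.

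Against the nuclei with Havcr1, few genes were called. Fewer genes could be tested than over the PT reference (5757), so few calls do not show that the classes are alike. There were 31, 190, 223 and 58 Havcr1+ nuclei free of the 4 excluded stromal genes, whether or not they held Vcam1. Their sums held 91004, 439377, 163187 and 102706 UMIs. Of 2050 genes tested, Cxcl10 and Dock10 were higher (0.0976%) and Ghr lower (0.0488%), and 136 (6.63%) had an unadjusted p under 0.05. Cxcl10 stood at 212, 191, 159 and 132 CPM in members and 54.9, 27.3, 30.6 and 48.7 CPM in Havcr1+ nuclei, so that every member library was higher (log2 fold change 2.17 ± 0.44, edgeR adjusted p = 0.0297). Dock10 stood at 670, 503, 637 and 718 CPM in members and 286, 184, 85.8 and 467 CPM in Havcr1+ nuclei (log2 fold change 1.25 ± 0.26, edgeR adjusted p = 0.0405). Ghr (chr15:3317760-3583492, minus strand), the growth hormone receptor gene, stood at 1980, 3630, 3900 and 2880 CPM in members and 6690, 5790, 6750 and 4500 CPM in Havcr1+ nuclei, without overlap (log2 fold change -0.98 ± 0.17, edgeR adjusted p = 0.00437). Its level in the PT reference, 5580, 7140, 6260 and 5270 CPM, was also above every member library. Itgav (0.92, adjusted p = 0.0552), Nfkbia (1.38, adjusted p = 0.0604), Cp (1.20, adjusted p = 0.0798) and Birc3 (1.37, adjusted p = 0.106) missed the threshold. Leaving out a library gave between 0 and 7 genes in each direction, and no gene was called in every one of these 4 fits. DESeq2 called 0 genes.

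Members differed among themselves. Csf1 was lower in members with more PT UMIs, with 546 CPM (Poisson 95% interval 318 to 874) in members with 0 PT UMIs, 288 (180 to 436) with 1 or 2 and 120 (67.1 to 198) with 3 or more. Dock10 did not follow that order, at 578 (343 to 913), 811 (622 to 1040) and 568 (443 to 716) CPM. Maf went the other way, at 64.2 (7.78 to 232), 262 (160 to 404) and 432 (324 to 563) CPM. The 3 classes came from different libraries: none of the 32 nuclei with 0 PT UMIs was from the no-injury library and 13 were from 96 h, and the part of the libraries in this order was not tested.

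**Figure D4:**
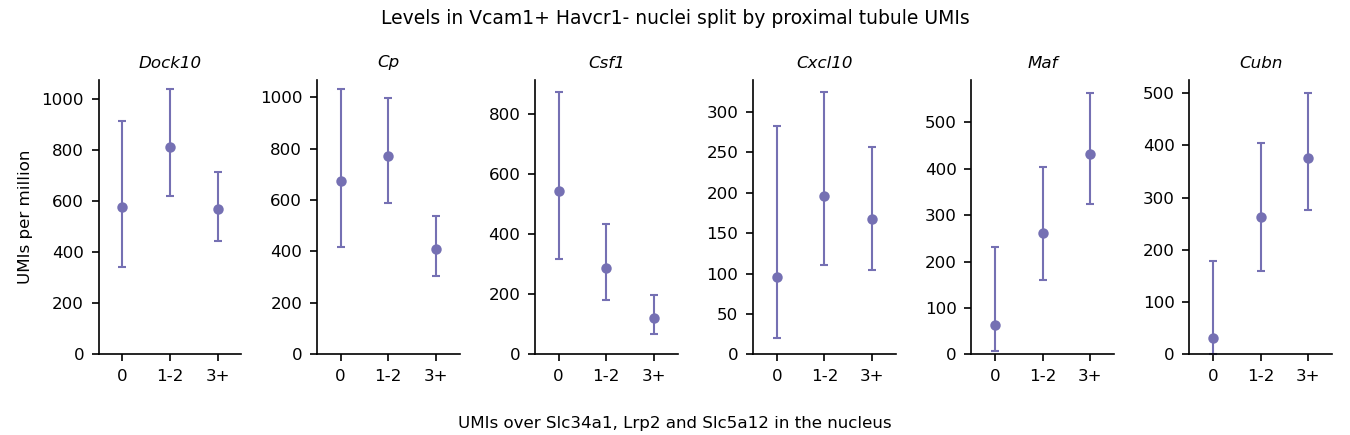
Levels (CPM of the class) of Dock10, Cp, Csf1, Cxcl10, Maf and Cubn in Vcam1+ Havcr1- nuclei with 0, 1 to 2, or at least 3 PT UMIs, with exact Poisson 95% intervals, which cover counting error only. Csf1 was lowest and Maf highest in the class with 3 or more.

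Split by their Vcam1 UMIs, members differed in several of the genes named above. The 43 members with at least 2 Vcam1 UMIs (9, 13, 5 and 16) had 46 Csf1 UMIs, or 582 CPM, and the 98 members with 1 had 8, or 52.1 CPM, a ratio of 11.2 (5.22 to 27.4). This held in each library: Csf1 stood at 556, 409, 641 and 809 CPM in members with at least 2 Vcam1 UMIs and 85.5, 0, 254 and 36.5 CPM in those with 1. At 96 h it rested on 3 and 2 Csf1 UMIs. Cxcl2 (240 against 26.0 CPM, ratio 9.23, 3.07 to 37.3), Icam1 (405 against 71.6 CPM, ratio 5.65, 2.78 to 12.4), Cp (1110 against 280 CPM, ratio 3.98, 2.73 to 5.87), Nfkb1 (645 against 234 CPM, ratio 2.75, 1.76 to 4.34) and Dock10 (999 against 469 CPM, ratio 2.13, 1.53 to 2.98) had the same order in the pooled sums. Nfkb1 went the other way at 96 h, with 214 CPM from 1 UMI against 380 CPM from 3. The 54 genes looked at were the named genes and the list genes of adhesion, NF-kB, cytoskeleton, injury and fibrosis with at least 20 member UMIs. In 24 of them (44.4%) the interval of the ratio lay above 1, against 168 of all 2407 genes with as many UMIs (6.98%). It lay below 1 in 1 gene, against 147 of all (6.11%), and that gene was Ghr, at 1910 CPM with at least 2 Vcam1 UMIs and 3410 CPM with 1 (ratio 0.56, 0.464 to 0.672). Spp1 showed no such order, at 898 against 1150 CPM (ratio 0.779, 0.583 to 1.03). Both groups of members had similar median depths in 2 libraries (2361 and 2163 UMIs without injury, 1339 and 1503 at 28 d), whereas the nuclei with more Vcam1 were deeper at 64 h (2196 and 1421) and 96 h (843 and 478.5). These values describe pooled UMIs of nuclei sorted by a gene of the rule and carry no test. The named genes among the 54 were picked from these same members, and the lists with earlier results of these data known. Their share beside that of all genes is therefore no independent support.

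Over time, Il34 and Spp1 were the adhesion and chemokine genes whose intervals lay above 1. Il34 was at 3.1 (1.63 to 6.31), 3.82 (1.55 to 9.23) and 2.76 (1.51 to 5.45) times its level in members without injury at 64 h, 96 h and 28 d, and Spp1 at 2.81 (1.88 to 4.28) times at 64 h. Neither rise was particular to members. In the PT reference levels given above, both genes were also higher in each library after injury than without. For Dock10 and Nfkb1 the interval held 1 at every time. Of 1059, 438 and 1561 genes with at least 20 UMIs over both sums, 15.9%, 9.36% and 10.1% were at least 2-fold higher and 5.67%, 27.2% and 6.21% at least 2-fold lower at 64 h, 96 h and 28 d than in members without injury. In the adhesion and chemokine list, 2 of 7 measured genes were 2-fold higher and 0 lower at 64 h, 3 of 5 higher and 0 lower at 96 h, and 2 of 8 higher and 1 lower at 28 d. In the NF-kB list 1 of 5 was higher at 64 h, and 1 of 7 was higher and 1 lower at 28 d. The cytoskeleton list stood out at 64 h, with 4 of 7 genes higher and a median log2 ratio of 2.15 on CPM + 10, against 0.21 over all genes measured.

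Members at 28 d held more Cdh6, Pdgfd and Erbb4 than members without injury. Cdh6, a cadherin of the embryonic renal vesicle and proximal tubule lineage, had 1, 12, 0 and 71 UMIs in members, or 17.6, 208, 0 and 671 CPM, against 15.3, 9.89, 29.1 and 34.2 CPM in the PT reference. The ratio of 28 d members to members without injury was 38.0 (exact 95% interval 6.61 to 1520), and 23 members at 28 d held it. Pdgfd, a ligand of PDGF receptor beta, stood at 17.6, 34.7, 79.6 and 435 CPM in members and 41.6, 25.9, 8.07 and 58.6 CPM in the reference, a ratio of 24.6 (4.21 to 994) at 28 d from 46 UMIs against 1. Erbb4, a receptor of neuregulins, stood at 459, 642, 0 and 2530 CPM in members and 491, 197, 142 and 553 CPM in the reference (ratio 5.52, 3.69 to 8.61, at 28 d). The reference did not show a change of that size for these 3 genes. Havcr1+ nuclei at 28 d held 623 CPM of Cdh6 and 409 CPM of Pdgfd, near the members' values.

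Of the other differences over time, those of Mid1, Keg1 and Fut9 were shared with the reference. Mid1, an E3 ubiquitin ligase gene, stood at 159, 5240, 159 and 2600 CPM in members and 141, 2330, 132 and 1510 CPM in the PT reference, high in the same 2 libraries of both classes. Keg1, a glycine N-acyltransferase-like gene of the kidney, stood at 4290, 833, 716 and 2290 CPM in members and 7850, 1920, 1850 and 5990 CPM in the reference, and the fucosyltransferase gene Fut9 at 2730, 833, 79.6 and 1730 CPM in members and 5350, 2830, 2210 and 4630 CPM in the reference. Both were lowest at 64 h and 96 h in either class. S100a6, a calcium-binding protein gene, reached 1130 CPM in members at 64 h (ratio 16.0, 5.95 to 60.4), but 44 of its 65 UMIs lay in 1 nucleus. Likewise 125 of the 170 Magi2 UMIs of members without injury came from 1 nucleus, so its ratios of 0.0289, 0.0796 and 0.164 at 64 h, 96 h and 28 d rest on that nucleus. At 96 h Spp1 (ratio 3.05, 1.72 to 5.33), Gpx3 (2.71, 1.91 to 3.8) and Ptprj (4.96, 2.58 to 9.58) were higher than in members without injury, and Slc6a15 had 0 UMIs against 35. The Spp1 ratio was 0.692 in members with at least 2 Vcam1 UMIs, and Ptprj had 0 UMIs at 96 h in members with at least 3 PT UMIs.

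**Figure D5:**
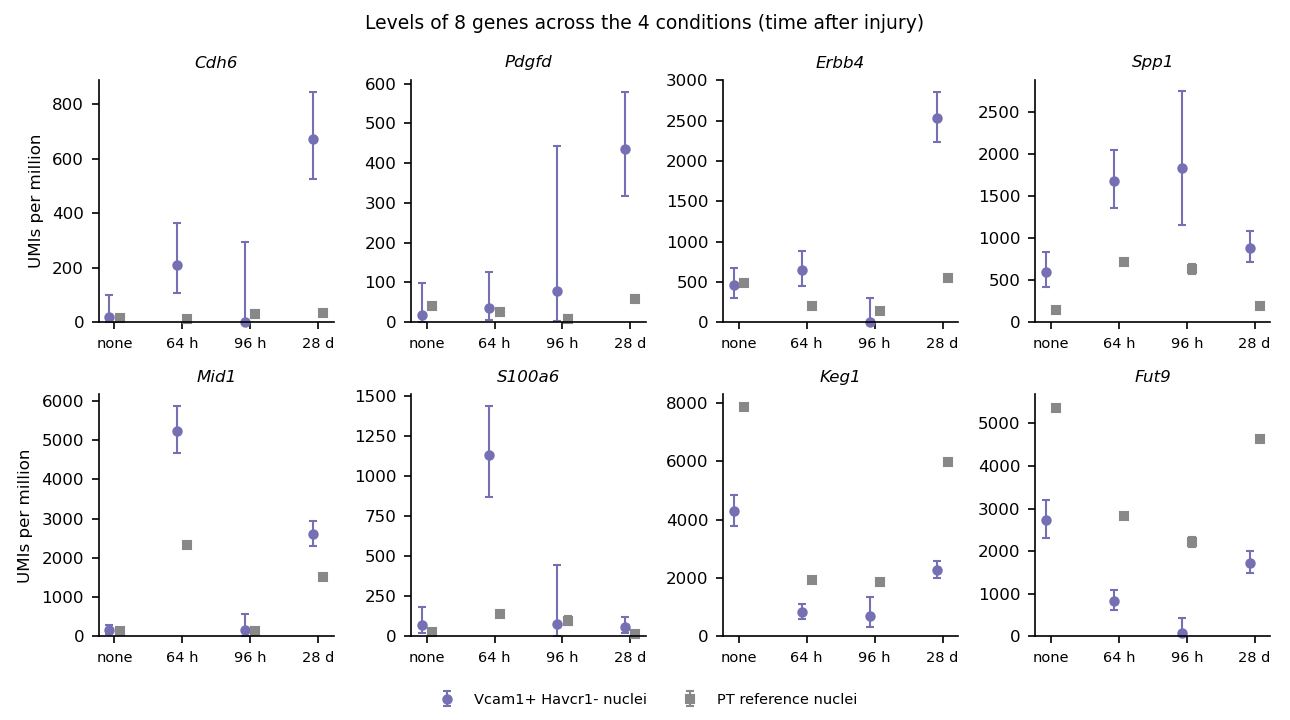
Levels (CPM, linear axis) of 8 genes in Vcam1+ Havcr1- nuclei and PT reference nuclei without injury and at 64 h, 96 h and 28 d after IRI, with exact Poisson 95% intervals and 1 library per time. Cdh6 and Pdgfd reached 671 and 435 CPM in members at 28 d, against 34.2 and 58.6 CPM in the reference, while Mid1, Keg1 and Fut9 moved alike in both classes.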

How the data were processed

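The deposited files hold UMI counts per gene and barcode (10x Genomics 3′ version 2 chemistry, 27998 genes) for DAPI-stained nuclei sorted by GFP. Reads were processed by the authors with Cell Ranger 2.1, STAR 2.5.1b and bcl2fastq 2.17, per the submitters' processing notes, and counted on mm10 with a pre-mRNA reference, per the labels. No deposited annotation of cells was used. Library totals ran from 1922002 to 7153971 UMIs, and kept barcodes had at least 200 detected genes. No doublet caller was run, and the deepest 5% of barcodes were left out as an alternative.

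Counts were summed per class and library and tested with edgeR 4.0.16 (TMM, filterByExpr, glmQLFit and glmQLFTest in R 4.3.3, library as a block), with DESeq2 1.42.0 as an alternative. Genes passed at an adjusted p under 0.05. The 4 tested libraries came from kidneys collected without injury or at different times after it, so from different animals. Each condition has 1 library, so animal and condition cannot be told apart. The p-values measure only the spread between these libraries. Intervals are exact (95%, scipy 1.17.1) and cover counting error only. Over time, genes with at least 20 UMIs over both sums were described by the 2-fold limit.

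Named genes were the 10 largest and 10 smallest folds per fit among called genes with the same direction in all 4 libraries and at least 50 UMIs, list members, and the 5 genes per time furthest each way. The members and the 17 gene lists were chosen with earlier results of these data known. Scripts were tested on simulated data.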

Additional observations from a re-analysis of the deposited data

Results flagged for a closer look

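The GFP-negative library without injury, which enters no comparison, also held nuclei that met the rule. They numbered 9 of 3338 kept nuclei, or 0.27% (exact 95% interval 0.123 to 0.511%), where a count of 0 would allow 0.0899%. Background nuclei of that library, with thick ascending limb, connecting tubule or intercalated markers, gave 2 of 757, or 0.264% (0.032 to 0.951%), so the share was at the background level. The GFP-positive library without injury held 0.684%. Of the 9 nuclei, 5 had 0 UMIs of the PT genes. In the 9 together the connecting tubule list summed to 4960 CPM, the thick ascending limb list to 2480 CPM and the endothelium list to 1590 CPM.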

How the results depend on the processing

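Each count of genes past the adjusted p of 0.05 moved with the settings, as did the number of genes tested. The cause was not tested. Members over the PT reference gave 226 higher and 278 lower genes. DESeq2 gave 131 and 144, no library block (no replicate block) 75 and 16, and a reference without PT gate 115 and 166. At least 2 Vcam1 UMIs gave 100 higher, no filter on low counts 495 lower, and leaving out 1 library 122 to 250 higher and 139 to 465 lower. Members with at least 3 PT UMIs gave 18 higher and 1 lower. The counts were 31 and 17 with no filter, 53 and 33 with total UMIs, 28 and 2 with DESeq2 size factors, and 6 and 25 with at least 2 Vcam1 UMIs. They were 10 higher without the deepest 5% or without nuclei of other cell types, 2 lower with DESeq2 and 0 lower with at least 400 genes. Leaving out 1 library gave 5 to 35 higher and 1 to 130 lower. Members over Havcr1+ nuclei gave 2 higher and 1 lower. The counts were 0 and 0 with DESeq2 or no library block, 0 and 4 with no filter, 17 and 12 with at least 2 Vcam1 UMIs, 8 and 4 with at least 400 genes, and 1 and 2 without the deepest 5%. Size factors gave 1 higher, leaving out other cell types 0 higher, total UMIs 2 lower, and leaving out 1 library 0 to 7 in each direction. No paired analysis was possible because the labels give the groups no shared replicate of animals; the library block pairs classes within a library.

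With total UMIs the list medians were 2.20 for adhesion and chemokines (2.09 as reported) and 1.65 for the cytoskeleton (1.53), and -0.39 for p53 targets among members with at least 3 PT UMIs (-0.59). The share without injury was 0.2% and 0.114% with all genes thinned to 500 and 300 UMIs, 0.171% and 0.0855% with the exclusions at full depth, and 0.257% with at least 2 Vcam1 UMIs. At 64 h it was 0.881% and 0.531% thinned to 500 and 300, 0.61% and 0.199% with exclusions at full depth, and 0.432% with 2 Vcam1 UMIs. At 96 h it was 0.156% with 2 Vcam1 UMIs. At 28 d the readings given for 64 h were 0.928%, 0.758%, 0.828%, 0.606% and 0.485%, in the same order. The readings with exclusions at full depth were chosen after seeing the data. Over time, TMM gave 9.07% of genes lower at 64 h, and 2.28% higher and 49.3% lower at 96 h, and 2 Vcam1 UMIs gave 14.9% lower at 28 d.

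Of 1206 gene values over the PT reference, 948 kept their direction and side of the threshold, 257 lost the call and 1 reversed, Pdgfd, which ranged over its fits without 1 library between -0.042 (without 28 d) and 2.46. With at least 3 PT UMIs 115 of 148 were kept, and S100a6 reversed without the deepest 5% (-0.17). At 96 h the ratio of Ptprj was 0 in members with 3 PT UMIs, and that of Spp1 was 0.692 with 2 Vcam1 UMIs. Ratios of Cdh6, Pdgfd and Fgf1 under those gates could not be given where the sum without injury was 0. The 12563 member UMIs at 96 h limit every value of that library.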
